A study of Mus musculus with 6 samples.

Results

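The D cyclins and the inhibitors of cyclin-dependent kinases (CDKs) were followed as 10 genes, 3 D cyclin genes (Ccnd1, Ccnd2 and Ccnd3) and 7 inhibitor genes (Cdkn1a, Cdkn1b, Cdkn1c, Cdkn2a, Cdkn2b, Cdkn2c and Cdkn2d), out of 27179 entries in the deposited expression table. They were taken by symbol and not by a cut on their values, though with earlier results of these data known. All 10 were found. The cells were nephron progenitors, the Six2-expressing cells of the cap mesenchyme that form the nephrons, sorted from mouse kidneys at E16.5 by green fluorescence under control of Six2. The control genotype was Six2TGC, a transgene that joins the green label to Cre recombinase, so that Cre acts where Six2 is expressed. The mutant genotype was Six2TGC;miR-17~92fl/fl, in which Cre can remove the floxed cluster of microRNA genes. There were 3 libraries per genotype, each made from the cells of 4 pooled embryos, and the labels name no floxed copies in the controls and no strain background. Deletion of the cluster and genetic background carried with the floxed copies cannot be told apart in this design. The comparison asks whether transcript levels of these cell cycle genes differ between progenitors with and without the cluster.

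D cyclins bind CDK4 and CDK6 in response to growth signals and start the phosphorylation of the retinoblastoma protein, which releases E2F factors and opens the way from G1 into S phase. Inhibitors of the CIP/KIP family (p21, p27 and p57, from Cdkn1a, Cdkn1b and Cdkn1c) bind cyclin-CDK complexes, and those of the INK4 family (from the Cdkn2 genes) bind CDK4 and CDK6 themselves and keep D cyclins away. MicroRNAs of the miR-17~92 cluster repress transcripts through short matches to their seed, mostly in the 3' UTR, and Cdkn1a is a known target of the miR-17 seed family in other cells. Related clusters elsewhere in the genome make microRNAs with seeds of this cluster, among them those of miR-17, miR-19 and miR-92, and the labels name no change to them.

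The cluster's mature microRNAs fall into 4 seed families. Their sequences are shown because the seed, in capitals (bases 2 to 8), sets which of the 10 genes carry a match (RefSeq, GRCm38.p6; all from the plus strand of chromosome 14).
miR-17-5p: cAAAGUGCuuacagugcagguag
miR-20a-5p: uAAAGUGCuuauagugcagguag
miR-18a-5p: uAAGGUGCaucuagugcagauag
miR-19a-3p: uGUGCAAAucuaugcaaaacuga
miR-19b-3p: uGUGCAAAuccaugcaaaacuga
miR-92a-3p: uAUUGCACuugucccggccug

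Matches were searched on the transcript strand of each gene's longest annotated 3' UTR (GENCODE M21, GRCm38), as GCACTTT for miR-17 and miR-20a, GCACCTT for miR-18a, TTTGCAC for miR-19a and miR-19b, and GTGCAAT for miR-92a. A 7mer-m8 site is such a match, an 8mer has an A after it, and a 7mer-A1 lacks its first base but has that A. Of the 10 genes 6 held at least 1 site, against 47.5% of 11571 tested genes with a 3' UTR. The miR-17 and miR-20a match was found in 4 of the 10 genes and in 22.8% of the tested genes. The miR-19 match was found in 3 of the 10 genes and in 20.2% of the tested genes, and the miR-92a match in 1 gene and in 14.5%. No miR-18a match was found, and 14.8% of the tested genes had one. The sites are printed 5′ to 3′ on the transcript strand with the match in capitals.
Ccnd1, miR-17 and miR-20a, 7mer-m8, chr7:144931668-144931690, minus strand: atttcaaaGCACTTTtggtcagc
Ccnd1, miR-19, 8mer, chr7:144930996-144931019, minus strand: gtaggtaaTTTGCACAcctctggc
Ccnd2, miR-17 and miR-20a, 7mer-m8, chr6:127129332-127129354, minus strand: ttagaaaaGCACTTTgaaaattt
Ccnd2, miR-19, 8mer, chr6:127128815-127128838, minus strand: ttttttttTTTGCACAattataat
Cdkn1a, miR-17 and miR-20a, 7mer-m8, chr17:29099821-29099843, plus strand: cctgaataGCACTTTggaaaaat
Cdkn1b, miR-19, 7mer-m8, chr6:134922254-134922276, plus strand: atgcagtaTTTGCACcccaagat
Cdkn1c, miR-92a, 7mer-m8, chr7:143458855-143458877, minus strand: tgaaaactGTGCAATgtattgag
Cdkn2b, miR-17 and miR-20a, 7mer-A1, chr4:89306358-89306380, minus strand: ttaataacCACTTTAgaaatttc

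Ccnd1 and Ccnd2 carried the same pair of sites in the same order, a miR-17 match 925 and 989 bases into the 3' UTR and a miR-19 8mer 1596 and 1505 bases in. Ccnd3, Cdkn2a, Cdkn2c and Cdkn2d held no match in this window, and their 3' UTRs were short (264 to 915 bases, against 1231 for the median tested gene). Those of Cdkn1c (688 bases) and Cdkn2b (755 bases) were short too, and each held 1 site. A match describes the sequence only and shows no binding.

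**Figure D1:**
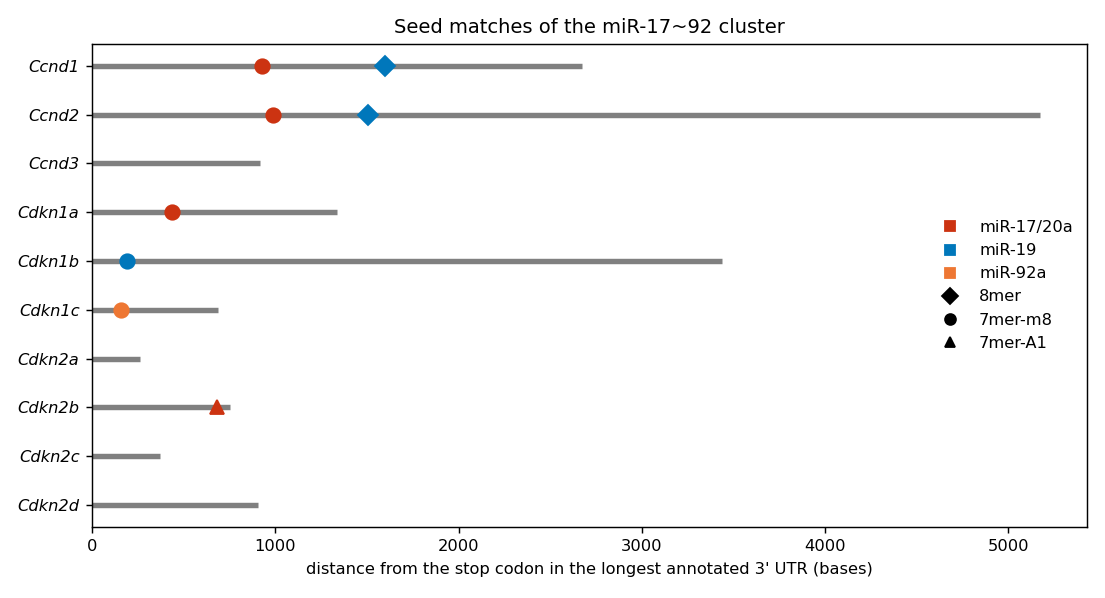
Seed matches along the longest annotated 3' UTR of each of the 10 genes, with the distance from the stop codon in bases on the x axis; colours give the seed family and shapes the kind of site. Ccnd1 and Ccnd2 each have a miR-17/20a match followed by a miR-19 8mer, and 4 genes have no match.

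Library depth, worked out from the grid of the RPKM values (reads scaled by gene length and library depth), was 27602025 to 36134381 reads. Mir17, the first microRNA of the cluster, served as the check of the labels. Its reads numbered 31, 26 and 16 in controls and 2, 0 and 0 in mutants, each in the order of replicates 1 to 3. The progenitor genes Six2, Eya1 and Crym were high in every library (at least 57, 213 and 93.1 RPKM), and each had a lower mean in mutants (log2 fold changes of -0.37, -0.28 and -0.6, none passing). The sum of 12 progenitor genes was 756 to 815 RPKM in controls and 593 to 705 in mutants. Their median log2 fold change was -0.3 over 11 tested genes. Of these 1 fell at an adjusted p of 0.05 (Meox1, -0.95, limma adjusted p 0.00271, named after its values were seen), where 1.81% of all tested genes did. The part of this difference in the members' levels was not tested. Macrophage genes stood out among the markers of other cells. Their sum over 11 genes was 5.69 to 9.62 RPKM in controls and 16.1 to 17.7 in mutants, and none was at 0 throughout. Of the 6 tested ones 3 rose (Fcer1g, and Ctss and Tyrobp, both named after their values were seen), where 1.32% of all tested genes did. The part of such cells in the members' levels was not tested. Between 0.0277 and 0.0362 RPKM corresponds to 1 read on a gene of 1 kb. In the deposited values the median tested gene had a log2 fold change of -0.125, mutant over control, and mitochondrial ribosomal RNA took 27% to 30.4% of control reads and 32.2% to 38.2% of mutant reads.

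Transcripts of 8 of the 10 genes were above the expression filter, a mean of at least 0.5 RPKM, and were tested, and in limma 0 of these 8 passed an adjusted p of 0.05 between control and mutant, where 3.13% of all 13463 tested genes did. At an unadjusted p of 0.05 the count was 1 of 8 (Cdkn2c), against 19.6% of all tested genes. With voom on reads recovered from the table it was 0 adjusted, against 5.1% of all genes, and 1 unadjusted, against 21.5%. The 3 mutant libraries lay above the 3 controls in 1 of the 8 genes, again Cdkn2c, where 7.06% of all tested genes did so. In no member did they lie wholly below the controls, where 18% of all tested genes did (25.1% in either direction). Log2 fold changes ran from -0.43 to 0.42 with a median of -0.04, and 5 of the 8 lay above the median of all tested genes.

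**Figure D2:**
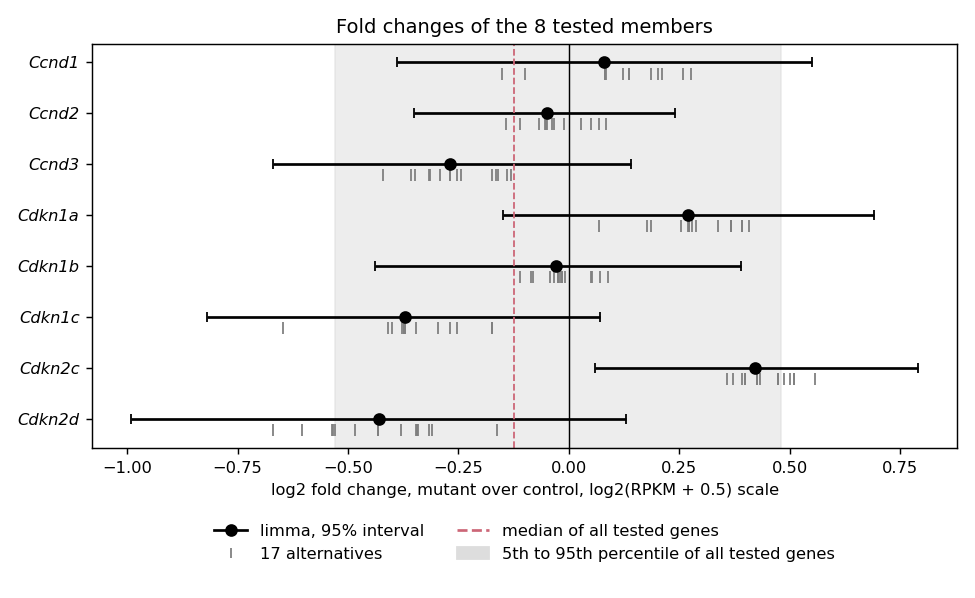
Log2 fold change of the 8 tested genes, mutant over control, with limma's 95% interval (points and bars) and the values under 17 alternative settings (ticks); the dashed line is the median of all tested genes (-0.125) and the band their 5th to 95th percentile. The interval of Cdkn2c alone leaves out 0, and its adjusted p of 0.2 does not pass.

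Levels per length spanned a wide range within progenitors. In controls Cdkn1c was highest at 134 ± 42 RPKM (SD, n = 3), 3.62 times the mean of Ccnd1, the next gene. Ccnd1 (37.1 ± 10.7) and Ccnd2 (25.5 ± 3.03) followed, with overlapping libraries, and lay well above the rest. Cdkn1a (5.87), Ccnd3 (5.39) and Cdkn2d (3.99) formed a group in which each overlapped its neighbour, as did the pair Cdkn2c (1.83) and Cdkn1b (1.59). Cdkn2b (0.0764 RPKM) and Cdkn2a (0) were last. The mutant means had the same order. There Ccnd1 stood apart from Ccnd2, Cdkn1a from Ccnd3 and Cdkn2c from Cdkn1b, while Cdkn2d and Cdkn2c overlapped.

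**Figure D3:**
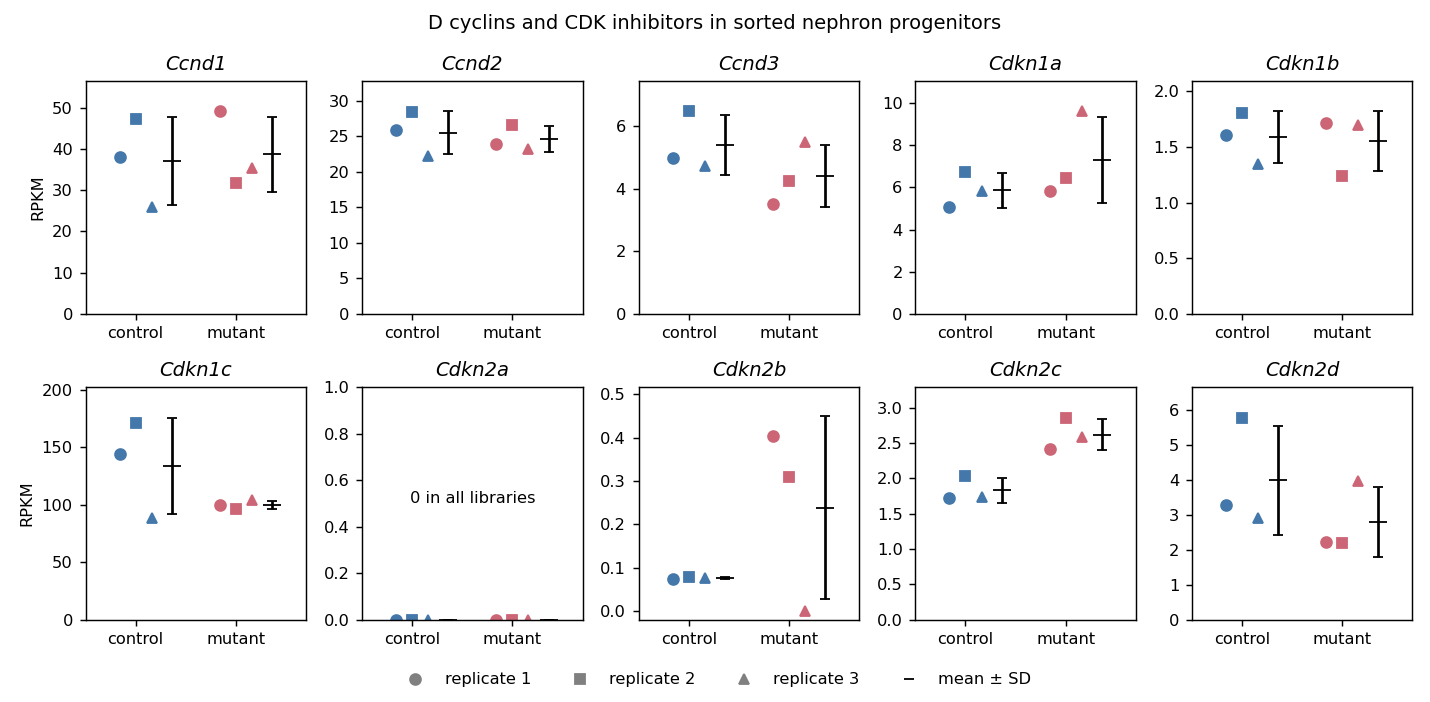
RPKM of each of the 10 genes in the 3 control (blue) and 3 mutant (red) libraries, with the symbol shape giving the replicate number and black bars the mean ± SD; each panel has its own linear scale. The groups overlap in every panel but that of Cdkn2c, and Cdkn2a is at 0 in all 6 libraries.

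Of the D cyclins, Ccnd1 (Entrez Gene 12443; chromosome 7, 144929931 to 144939925), which is also a gene of the early renal vesicle, had control values of 38.1, 47.3 and 25.9 RPKM and mutant values of 49.2, 31.9 and 35.4 RPKM (here and for the other genes in the order of replicates 1 to 3). The lowest library was a control, the highest was a mutant, and the groups overlapped. Its log2 fold change was 0.08 ± 0.21 (standard error; 95% interval -0.39 to 0.55; limma adjusted p 0.847), so a change of up to 1.46-fold up or to 0.765 of the control level is within the interval. The direction was set by single libraries, being -0.15 without control replicate 3 and -0.1 without mutant replicate 1. Of its exon bases 23.4% lie in Oraov1 on the opposite strand. The strand setting of the counting is not given in the sources used here, and Oraov1 itself was at 5.06 to 5.5 RPKM in controls and 4.23 to 4.92 in mutants. Beside Ccnd1, the summed level of 13 genes that mark the renal vesicle and cells committed to it was 78.6 to 81 RPKM in controls and 82.3 to 103 in mutants. In that list 2 of 10 tested genes rose (Cdh6, and Emx2, named after its values were seen), the fold change of 9 exceeded the median of all tested genes, and none of the 13 was at 0 throughout. The part of such cells in the level of Ccnd1 was not tested. In bulk samples, fewer cells of a type and less RNA per cell cannot be told apart.

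Ccnd2 (Entrez Gene 12444; chromosome 6, 127125162 to 127152193) had the smallest standard error of the 8. It measured 25.9, 28.4 and 22.3 RPKM in controls and 23.9, 26.6 and 23.2 RPKM in mutants, and every mutant library lay within the range of the controls. The log2 fold change was -0.05 ± 0.13 (standard error; 95% interval -0.35 to 0.24; limma adjusted p 0.848), which leaves room for 0.787 to 1.18 times the control level. The sign turned under median-of-ratios scaling (0.05) and quantile normalization (0.08). Ccnd1 and Ccnd2 carry the same pair of seed matches, and neither passed the test. Antisense transcripts share 3.95% (Gm43126) and 3.91% (9330179D12Rik) of the exon bases of Ccnd2.

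Ccnd3 (Entrez Gene 12445; chromosome 17, 47505051 to 47599691), which has no seed match, had control values of 4.97, 6.47 and 4.72 RPKM and mutant values of 3.51, 4.25 and 5.48 RPKM. Mutant replicates 1 and 2 lay below all controls and mutant replicate 3 lay among them. Its log2 fold change was -0.27 ± 0.19 (standard error; 95% interval -0.67 to 0.14; limma adjusted p 0.43). It was -0.13 without mutant replicate 1, -0.14 without control replicate 2 and -0.42 without mutant replicate 3, and passed in none of these. Bysl, which shares 4.11% of the exon bases of Ccnd3 on the opposite strand, was at 3.29 to 3.92 RPKM in controls and 1.99 to 2.83 in mutants.

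As shares of the summed D cyclin level, Ccnd1 made up 53.9% ± 4.48 in controls and 56.8% ± 6.83 in mutants, Ccnd2 38.1% ± 3.85 and 36.6% ± 5.63, and Ccnd3 8% ± 0.861 and 6.63% ± 1.99 (SD, n = 3 each). The summed level was 68 ± 14.6 RPKM in controls and 67.8 ± 7.63 in mutants. The libraries of the genotypes overlapped in the sum and in each share, and none of these was tested.

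Of the CIP/KIP inhibitors, Cdkn1a (Entrez Gene 12575; chromosome 17, 29090976 to 29100727), which encodes p21, the inhibitor induced by p53, had control values of 5.06, 6.73 and 5.81 RPKM and mutant values of 5.82, 6.47 and 9.62 RPKM. Only mutant replicate 3 lay above all controls, and the other mutant libraries lay within their range. The log2 fold change was 0.27 ± 0.19 (standard error; 95% interval -0.15 to 0.69; limma adjusted p 0.436, and 0.27 to 0.831 over the alternatives run). The interval reaches from 0.904 to 1.61 times the control level. The log2 fold change was 0.07 without mutant replicate 3, 0.18 without control replicate 1 and 0.41 without mutant replicate 1. Mutant replicate 3 also had the highest sum of 7 tubule genes, 19.5 RPKM. That sum was 6.61 and 7.97 in the other mutants and 3.79 to 4.7 in controls. Of 4 tested tubule genes 1 rose (Slc12a1), where 1.32% of all tested genes did. None of the 7 was at 0 in all libraries, and the part of tubule cells in the level of Cdkn1a was not tested. An unclassified transcript on the opposite strand (AC167363.2) shares 7.68% of the exon bases of Cdkn1a. The transcript of p53 itself, Trp53, was at 53.8, 58.9 and 58.8 RPKM in controls and 47.1, 43.8 and 53.7 in mutants (log2 fold change -0.25, limma adjusted p 0.301; named after its values were seen).

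Cdkn1b (Entrez Gene 12576; chromosome 6, 134920401 to 134925513), which encodes p27, was low. It had control values of 1.61, 1.81 and 1.35 RPKM and mutant values of 1.72, 1.24 and 1.7 RPKM, with 91 to 157 reads behind each control value and 83 to 125 behind each mutant value. The groups overlapped. Its log2 fold change was -0.03 ± 0.19 (standard error; 95% interval -0.44 to 0.39; limma adjusted p 0.95), and 0.05 with median-of-ratios scaling.

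Cdkn1c (Entrez Gene 12577; chromosome 7, 143458339 to 143461050), the imprinted gene of p57, was the most abundant of the 10 and varied among controls (coefficient of variation 31.3%) more than among mutants (3.74%). It had control values of 144, 171 and 88.3 RPKM and mutant values of 99.5, 96.3 and 104 RPKM, so that the mutants lay close together, below 2 controls and above the third. The mean went from 134 ± 42 to 99.9 ± 3.74 RPKM (SD, n = 3). The log2 fold change was -0.37 ± 0.2 (standard error; 95% interval -0.82 to 0.07; limma adjusted p 0.329). The size rested on single control libraries. Without control replicate 2 the log2 fold change was -0.17 (limma adjusted p 0.664). Without control replicate 3 it was -0.65 and Cdkn1c passed (limma adjusted p 0.00884), a setting in which 8.04% of all tested genes were called. Over all alternatives run the adjusted p was between 0.00884 and 0.664.

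Markers were uneven among the same libraries. The summed level of 10 stroma genes was 111, 163 and 66 RPKM in control replicates 1 to 3. Cdkn1c and several other members had the same order there. In mutant replicates 1 to 3 the sum was 124, 202 and 177 RPKM, and Cdkn1c (99.5, 96.3 and 104) had another order. The fold changes of all 10 exceeded the median of all tested genes, 0 were called and none was at 0 throughout. The part of stroma in the level of Cdkn1c was not tested. Podocytes are known to make p57. The sum of 7 podocyte genes was 7.94 to 8.54 RPKM in controls and 5.53 to 13 in mutants, 3 of the 7 were under the filter and none was at 0 throughout, and the part of podocytes was not tested. Of the exon bases of Cdkn1c 30.7% lie in an antisense transcript (Gm44732), whose reads cannot be told apart without strand. Cdkn1c made up 90.6% ± 2.22 of the summed RPKM of the 7 inhibitors in controls and 87.4% ± 1.82 in mutants (SD, n = 3 each). Its share in control replicate 3 (88.1%) lay within the mutant range, 85.3% to 88.8%.

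**Figure D4:**
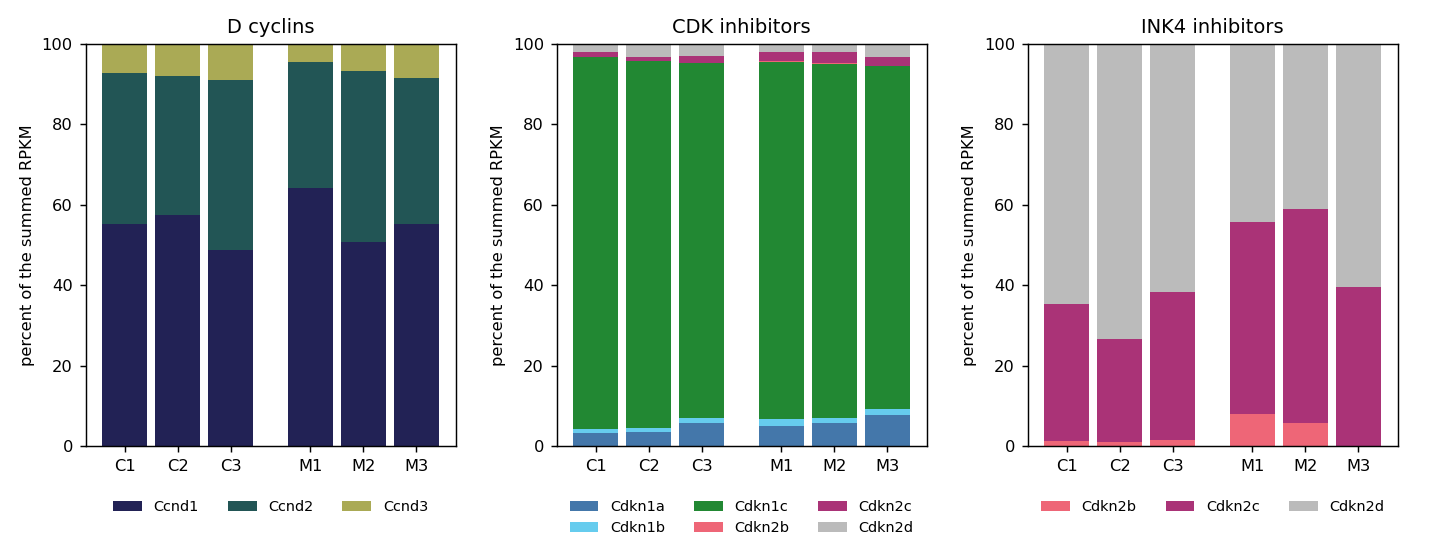
Share of each gene in the summed RPKM of the D cyclins, of the 7 CDK inhibitors and of the INK4 inhibitors, in percent, for control (C1 to C3) and mutant (M1 to M3) libraries. Cdkn1c fills 85.3% to 92.5% of the inhibitor sum in every library, and Cdkn2c takes 39.5% to 53.2% of the INK4 sum in mutants and 25.7% to 36.8% in controls. None of the shares was tested.

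Of the INK4 inhibitors, Cdkn2c (Entrez Gene 12580; chromosome 4, 109660876 to 109667189), which encodes p18, had the lowest p of the 8. It had control values of 1.72, 2.03 and 1.74 RPKM and mutant values of 2.42, 2.86 and 2.59 RPKM. Every mutant library lay above every control. The mean went from 1.83 ± 0.173 to 2.62 ± 0.224 RPKM (SD, n = 3), 1.44 times the control mean, on 191 control and 248 mutant reads. The log2 fold change was 0.42 ± 0.17 (standard error; 95% interval 0.06 to 0.79; limma unadjusted p 0.0262, adjusted p 0.2). It failed the correction over all genes, and its adjusted p was 0.122 to 0.467 over the 17 alternatives, all of them with a positive fold change (0.36 to 0.56). Its annotated exons overlap no other gene and share no word of 31 bases with one, and it has no seed match.

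Cdkn2d (Entrez Gene 12581; chromosome 9, 21288410 to 21291407), which encodes p19 of the INK4 family, had control values of 3.28, 5.79 and 2.91 RPKM and mutant values of 2.24, 2.21 and 3.96 RPKM. Mutant replicates 1 and 2 lay below all controls, and mutant replicate 3 lay above 2 of them. The log2 fold change was -0.43 ± 0.26 (standard error, the widest of the 8; 95% interval -0.99 to 0.13; limma adjusted p 0.367). It was -0.16 without control replicate 2 and -0.67 without mutant replicate 3, and passed in neither. The ratio of Cdkn2c to Cdkn2d had control values of 0.523, 0.35 and 0.597 and mutant values of 1.08, 1.3 and 0.653, and it was higher in every mutant library than in any control. This ratio was formed after the values had been seen and was not tested. The summed level of the INK4 genes was 5.9 ± 1.74 RPKM (SD, n = 3) in controls, against 5.66 ± 0.784 RPKM in mutants.

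Cdkn2b (Entrez Gene 12579; chromosome 4, 89306299 to 89311039), which encodes p15, was under the filter. It had 3, 4 and 3 reads in controls and 17, 12 and 0 reads in mutants, or 0.0731, 0.0795 and 0.0766 RPKM and 0.403, 0.31 and 0. The highest and the lowest libraries were both mutants. An exact two-sided permutation test gave p = 0.4, where 3 against 3 libraries cannot go below 0.1. The ratio of summed read rates was 3.17 (95% exact binomial interval 1.5 to 7.3), an interval that covers counting error only and leaves out the gap between the mutant pools. A count of 0 in mutant replicate 3 allows a level of up to 0.078 RPKM (3 reads), which is in the range of the controls. Without that library the exact p was 0.1, the smallest that 3 against 2 libraries allow.

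Cdkn2a (Entrez Gene 12578; chromosome 4, 89274471 to 89294653), which encodes p16 and p19Arf from a shared locus and is a marker of senescent cells, was listed at 0 in all 6 libraries. With 3 reads as the floor and 1172 annotated exon bases, a count of 0 allows up to 0.0708 to 0.0927 RPKM, depending on the library. No difference was detectable at this depth.

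The 8 tested genes shared much of their order among the controls. Control replicate 2 was the highest control in 8 of 8 genes, against 46.4% of all tested genes, and control replicate 3 was the lowest in 6 of 8, against 47.7%. With median-of-ratios scaling the counts were again 8 of 8 and 6 of 8, against 37.9% and 38.6% of all tested genes. Among mutants, in the deposited values, the highest value fell in mutant replicate 1 in 2 genes, in mutant replicate 2 in 2 and in mutant replicate 3 in 4. The shares of all tested genes were 36%, 10.4% and 53.7%. The order was noticed in the data and was not tested.

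Genes whose levels followed those of the members most closely were sought among 65 other genes, the members and the 3 lists described next. Likeness was the root mean square difference of log2(RPKM + 0.5), centred on each gene's mean over the 6 libraries. For Cdkn2c the closest were E2f7, an E2F repressor (0.14), and Dtl, a receptor of the CUL4 ubiquitin ligase (0.18), where the median of all 65 was 0.34. For Cdkn1c they were Rbx1, a RING subunit of cullin ligases (0.12), and Ctnnb1, which encodes β-catenin (0.15), with a median of 0.31. For Cdkn2d they were Ccnd3 (0.2) and E2f2 (0.24), with a median of 0.39. With 6 libraries and 65 candidates this is a description only.

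The partners of these genes gave no call either. Of 23 genes of the G1 to S transition, 0 rose and 0 fell in limma, and the list median was -0.1, close to that of all tested genes. Among them E2f7 (3.58 ± 0.105 RPKM in controls, 5.07 ± 0.771 in mutants; log2 fold change 0.44, limma adjusted p 0.162) and E2f8 (0.3, adjusted p 0.254), both repressors of E2F targets, lay higher in every mutant library than in any control. Cdc25a, the phosphatase that activates CDK2, lay lower in every mutant library (-0.3, adjusted p 0.278). In all, the groups did not overlap in 6 of the 23 genes, with mutants higher in 2 and lower in 4, against 25.1% of all tested genes (7.06% higher and 18% lower). E2f6 had a log2 fold change of -0.46 (adjusted p 0.15) and passed without control replicate 3 (0.0202). Of the kinases that D cyclins bind, named after their values were seen, Cdk4 was at 104 to 138 RPKM in controls and 96.3 to 106 in mutants, and Cdk6 at 2.89 to 4.45 and 4.44 to 5.24. Neither passed.

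Of 17 genes that act in the turnover of the inhibitors and D cyclins, 0 rose and 0 fell, with a median of -0.24. The 4 of lowest p were Ddb1, the adaptor of CUL4 ligases (log2 fold change -0.32, limma adjusted p 0.205), Skp1, the adaptor of SCF ligases (-0.44, 0.218), Cops5, a subunit of the COP9 signalosome (-0.32, 0.222), and Cul4a (-0.3, 0.248). Rbx1 passed without control replicate 3 (log2 fold change -0.55, limma adjusted p 0.0334). Of 18 tested transcriptional regulators, 0 rose and 0 fell, with a median of -0.14. Tcf7l1, a Wnt pathway repressor, went from 21 ± 1.88 to 14.1 ± 1.83 RPKM (SD, n = 3; -0.57, limma adjusted p 0.0524) and Mycn, a Myc family gene, from 17.5 ± 3.39 to 26.1 ± 3.57 (0.57, adjusted p 0.0977). Both had groups that did not overlap and lay near the threshold. Among the 18 regulators the groups did not overlap in 1 gene with mutants higher and 6 with mutants lower. Of all tested genes 7.06% and 18% did so. Tcf7l1 passed with voom (0.0241) and with array weights (0.0455), and Mycn passed with voom (0.0396), under quantile normalization (0.0273) and median-of-ratios scaling (0.0343), and with depth taken without mitochondrial ribosomal RNA (0.0371). Foxo1, a FOXO factor that can induce p27, had -0.39 (adjusted p 0.15), and Myc -0.32 (0.248). Ctnnb1 passed without control replicate 3 (-0.56, limma adjusted p 0.0314).

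**Figure D5:**
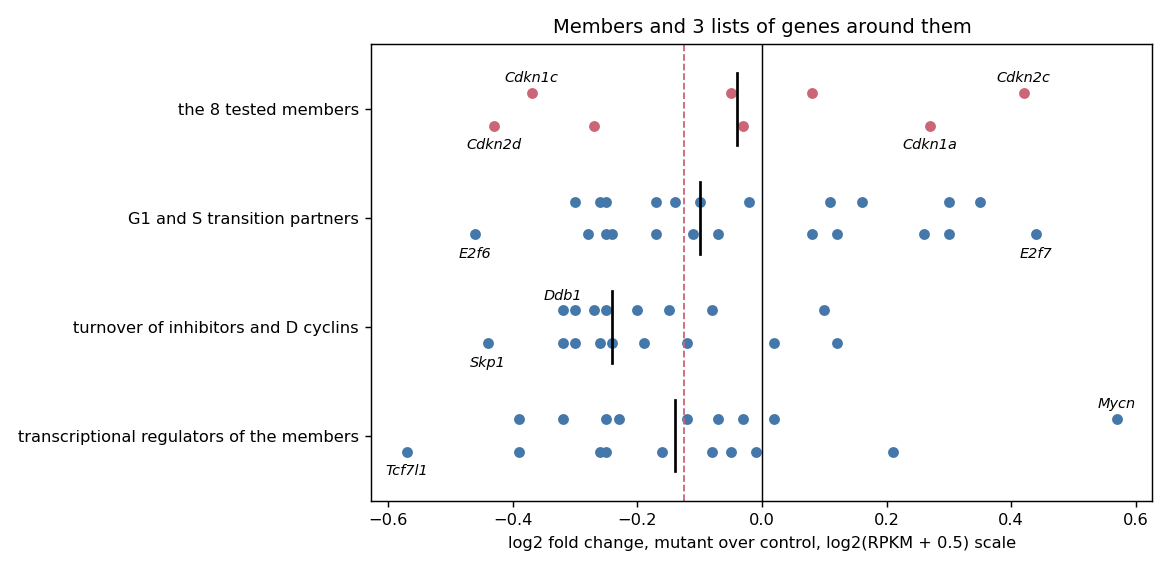
Log2 fold changes, mutant over control, of the 8 tested members (red) and of the tested genes in the 3 lists (blue), 1 point per gene, with the median of each set as a black bar and the median of all tested genes as a dashed line. No point in the plot passed at an adjusted p of 0.05, and Tcf7l1 and Mycn lie farthest out.

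Markers of cycling cells were present in all libraries. The summed level of 12 genes of G2 and M was 442 to 449 RPKM in controls and 471 to 527 in mutants, with the fold change of 10 of 12 over the median of all tested genes and 0 called. Of its most abundant genes Mki67 had a control mean of 79.6 ± 21.1 RPKM and a mutant mean of 119 ± 7.91 RPKM (SD, n = 3), and it did not pass (0.61 on the log2 scale, limma adjusted p 0.0912), while the groups overlapped for Top2a (0.03) and Ccnb1 (-0.18). The sum of 8 S phase genes was 268 to 383 in controls and 262 to 316 in mutants. Among the controls it was lowest in control replicate 3 (268) and highest in control replicate 2 (383), the same order as 6 of the members. In mutant replicates 1 to 3 it was 316, 262 and 294, highest in replicate 1, where 2 of the 8 tested members were highest. The likeness was not tested.

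Seed matches and fold changes of the members were set side by side. The 6 genes with a match included 5 tested ones, with log2 fold changes from -0.37 (Cdkn1c) to 0.27 (Cdkn1a), and the 3 tested genes without a match spanned -0.43 (Cdkn2d) to 0.42 (Cdkn2c). Over all tested genes with a 3' UTR the median was -0.08 for those with a miR-17 and miR-20a match and -0.14 for those without one. For miR-19 the medians were -0.09 and -0.14, for miR-92a -0.08 and -0.14, and for miR-18a -0.12 and -0.13. These differences were not tested, and 3' UTR length was not accounted for.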

How the data were processed

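Libraries from total RNA of 3 control and 3 mutant pools were made with an Ovation kit, per the labels' protocols. The submitters' processing notes list the build mm10 and the tools FastQC and limma. The authors deposited 1 table of RPKM values, normalized for gene length and depth; its column names include subread, per the file headers, while the counting settings, annotation and strand were not given in the sources used here. Whole reads and depths were worked out from the grid of RPKM values, with a tolerance of 0.1 of a read, for each of the 13463 tested genes. Symbols were matched by Entrez Gene number for 25275 of 27179 entries. limma 3.58.1 in R 4.3.3 was fitted to log2(RPKM + 0.5), keeping genes whose mean reached 0.5 RPKM, with genotype as the term, the trend option and p-values adjusted by Benjamini-Hochberg over 13463 genes, two-sided. Fold changes on this scale understate those of low genes. Sites and shared words were found with Python 3.11.15. Named were the 10 members, Mir17 and Six2, genes past the threshold and the 4 of lowest p in each of 3 lists, the 2 closest patterns for each of the 3 members of lowest p, and the most abundant markers; others are marked as named after their values were seen. Members and lists were chosen with earlier results of these data known. Replicates are separate pools of embryos. Of 17 alternatives, 2 (voom, and depth without mitochondrial ribosomal RNA) were chosen after seeing the data.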

Additional observations from a re-analysis of the deposited data

How the results depend on the processing

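With 3 libraries a group, the upper ends of the 95% intervals of the tested members ran from 1.05 (Cdkn1c) to 1.73 (Cdkn2c). The lower ends ran from 0.502 (Cdkn2d) to 1.04 (Cdkn2c). These are ratios of RPKM + 0.5, mutant over control, and understate the change in level of low genes. Read intervals cover counting error only. The count of members called was 0 under every alternative but 1, and 0 to 1 over the fits that leave out 1 library, the 1 being Cdkn1c without control replicate 3. Of 136 values of the 8 tested members, 125 kept their direction and side of the threshold, 1 passed and 10 changed sign; none of those 10 passed. Leaving out 1 library gave -0.15 to 0.28 for Ccnd1, -0.14 to 0.03 for Ccnd2 and -0.11 to 0.09 for Cdkn1b. The sign changes were Ccnd1 without control replicate 3 (-0.15) and without mutant replicate 1 (-0.1), Ccnd2 with quantile normalization (0.08), median-of-ratios scaling (0.05), depth without mitochondrial ribosomal RNA (0.07) and without control replicate 2 (0.03), and Cdkn1b with median-of-ratios scaling (0.05), depth without mitochondrial ribosomal RNA (0.07), without control replicate 2 (0.05) and without mutant replicate 2 (0.09). In the 3 lists 0 genes were called in the deposited values, 1 each under quantile normalization, median-of-ratios scaling, array weights and depth without mitochondrial ribosomal RNA, 2 with voom, and 0 to 3 without 1 library, the 3 being E2f6, Rbx1 and Ctnnb1 without control replicate 3. Over all genes the count was 422, with 178 higher and 244 lower; it was 143 with no filter, 686 with voom and 148 to 1083 without 1 library. The split was 262 higher and 171 lower under median-of-ratios scaling, 264 and 163 under quantile normalization, and 268 and 149 with depth without mitochondrial ribosomal RNA. Counting 8mer sites alone left 2 of the 10 members with a site, Ccnd1 and Ccnd2, since fewer sites qualify. Of tested genes with a 3' UTR 14.3% had an 8mer. The Ccnd1 share of D cyclins differed by 2.87 percentage points, mutant minus control, and by -0.863 to 5.85 without 1 library. With the replicate number as a block 393 genes were called, and 0 members and 0 list genes. The numbers share no stated source. Same-numbered libraries deviated from their group means with correlations of 0.05, 0.16 and 0.15, and each correlated best with its own number. Deviations from a mean of 3 libraries are tied to each other, so these small correlations cannot show a pairing. Except where a setting tests fewer genes, sites or samples, the cause was not tested.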
